A study of Mus musculus with 2 samples.

Results

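STAT5 regions that lay inside a gene, more than 1 kb and up to 10 kb from its start, were examined in effector CD8 T cells treated with IL-2. Each region called in the IL-2 library was given to the listed gene with the closest start, and it was kept where it lay in that gene at such a distance. The rule found 859 of 5703 regions (15.1%), and their nearest genes were 728 of the 4934 genes in the table. Peak heights did not enter the rule, except that a region had to be called in the IL-2 library.

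Binding was measured by ChIP-seq, the sequencing of DNA recovered with an antibody to STAT5A. Both libraries came from OT-I CD8 T cells of C57BL/6 strain, a line whose transgenic T cell receptor recognises the ovalbumin peptide SIINFEKL. In both, the cells had been adoptively transferred, primed in the animal with that peptide plus agonists of CD134 and CD137, and collected from the spleen by sorting 4 days afterwards. The control group was 1 library of sorted cells with no IL-2, and the IL-2 group was 1 library of sorted cells exposed to 0.5 µg/ml IL-2 in culture for 1 hour. The sources used here do not state the number or age of the animals, or whether animals were pooled. With a single library in each group there was no replicate, so no p-value is given and every difference below is a difference between these libraries.

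IL-2 acts through a receptor whose beta and common gamma chains carry the kinases JAK1 and JAK3, which phosphorylate STAT5. Phosphorylated STAT5 forms dimers, enters the nucleus and binds palindromic DNA elements with the arms TTC and GAA. In T cells such elements occur at promoters and also within genes, where binding sites in the first part of a gene often act as enhancers of that gene or of a neighbour.

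Some of these intragenic positions fell at further gene starts annotated by RefSeq. The RefSeq sequence table for GRCm38.p6, the same assembly as mm10, holds windows of 300 bases, from 250 before to 50 after a start, and 557 of the 728 nearest genes had at least 1. A window held the position of 14 of the intragenic regions. The upstream 250 bases are given for 6 of these windows, chosen after their values were seen. All but that of 1810058I24Rik have a match to TTCNNNGAA, so the 6 do not stand for all 14, of which 7 had one. Each lies at a gene with several regions, so only gene means of height are known there. Windows at Il20ra, Nfyc, Zfpm1, Sema6b and Arrdc3, whose region was the only one of its gene, are left out. Those at Zfpm1, Sema6b and Arrdc3 had no match. Also left out are windows at Rabgap1l, Srsf11 and Lpar5, which lie at genes with several regions and had no match either. The 6 sequences are written 5′ to 3′ on the strand of the gene, and capitals mark each match to TTCNNNGAA.
Bcl6, chr16:23981284-23981533, minus strand: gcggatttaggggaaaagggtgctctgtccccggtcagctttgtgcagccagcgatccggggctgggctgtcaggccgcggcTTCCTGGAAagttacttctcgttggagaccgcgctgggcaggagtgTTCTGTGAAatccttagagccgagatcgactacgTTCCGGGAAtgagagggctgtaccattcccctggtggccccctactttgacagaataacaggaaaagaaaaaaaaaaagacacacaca
9130015A21Rik, chr12:35686305-35686554, minus strand: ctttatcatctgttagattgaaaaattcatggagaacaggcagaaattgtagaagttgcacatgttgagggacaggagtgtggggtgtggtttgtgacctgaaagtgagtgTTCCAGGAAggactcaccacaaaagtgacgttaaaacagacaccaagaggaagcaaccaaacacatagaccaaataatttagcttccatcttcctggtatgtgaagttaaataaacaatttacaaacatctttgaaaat
Mapk14, chr17:28692318-28692567, plus strand: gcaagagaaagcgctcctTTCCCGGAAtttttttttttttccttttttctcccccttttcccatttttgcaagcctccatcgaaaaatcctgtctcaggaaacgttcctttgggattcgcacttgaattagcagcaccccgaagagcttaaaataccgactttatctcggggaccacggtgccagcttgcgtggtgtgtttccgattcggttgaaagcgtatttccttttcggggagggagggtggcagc
Tnfrsf9, chr4:150927749-150927998, plus strand: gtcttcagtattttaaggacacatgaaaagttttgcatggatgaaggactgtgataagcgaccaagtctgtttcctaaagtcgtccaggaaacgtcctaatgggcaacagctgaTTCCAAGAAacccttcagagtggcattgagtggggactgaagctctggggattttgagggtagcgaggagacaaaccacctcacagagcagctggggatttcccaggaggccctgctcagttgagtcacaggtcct
Nsun6, chr2:15049313-15049562, minus strand: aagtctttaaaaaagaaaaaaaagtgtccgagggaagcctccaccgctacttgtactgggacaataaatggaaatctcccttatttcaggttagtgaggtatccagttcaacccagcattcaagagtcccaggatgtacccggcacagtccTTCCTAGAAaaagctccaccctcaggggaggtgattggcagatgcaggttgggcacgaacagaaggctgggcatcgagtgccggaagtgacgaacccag
1810058I24Rik, chr6:35256741-35256990, plus strand: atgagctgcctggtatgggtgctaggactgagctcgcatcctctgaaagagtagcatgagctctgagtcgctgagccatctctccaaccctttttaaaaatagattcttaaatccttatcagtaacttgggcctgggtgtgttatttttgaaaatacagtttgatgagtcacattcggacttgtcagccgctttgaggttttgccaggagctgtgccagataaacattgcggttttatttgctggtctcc

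The Bcl6 window holds 3 matches (TTCCTGGAA, TTCTGTGAA and TTCCGGGAA). The position given for the region, 7268 bp into Bcl6 on chromosome 16 at 23981344, lay 23 bp from the centre of the nearest match. Bcl6 encodes a transcriptional repressor, and the mean height over its 4 regions was 4.5 for control and 75.75 after IL-2. In Tnfrsf9, which encodes CD137, one of the receptors engaged during priming, the position at 150927872 on chromosome 4 lay 5 bp from the centre of TTCCAAGAA. The mean height over the 6 regions of Tnfrsf9 was 5.17 for control and 42.5 after IL-2. Mapk14, which encodes a p38 MAP kinase, had 2 regions with means of 5.5 and 52, and its match lay 92 bp from the position. The 9130015A21Rik window holds TTCCAGGAA 25 bp from the position (2 regions, means of 4 and 66.5). Nsun6, which encodes an RNA methyltransferase, holds TTCCTAGAA 15 bp away (2 regions, means of 2.5 and 14.5). The window of 1810058I24Rik holds no match, although its 2 regions had means of 4 and 44.5. A match is a description of the letters and not a shown binding site.

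TTCNNNGAA was found in 7 of the 14 windows that held an intragenic region (95% Wilson interval 26.8 to 73.2%). Over all 32851 windows the share was 8.30%. At other starts of the nearest genes of all intragenic regions, 728 windows from 527 genes held no region position. Of these windows, 40 had a match (5.49%, interval 4.06 to 7.40%). At starts that held the position of a region within 1 kb of a start, 183 of 393 windows had a match (46.6%, interval 41.7 to 51.5%), so the intragenic share was near that of ordinary gene starts with a region. The stricter form TTCCNGGAA, whose matches are also matches to TTCNNNGAA, was in 3 of the 14 windows (21.4%) and in 1.15% of all windows. In the 7 windows with a match, the region position lay from 5 to 92 bp (median 15) from the nearest match centre. Motifs were searched on both strands.

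The other motifs searched gave the following counts in the 14 windows. The arms TTC and GAA with 4 bases between them were in 1 (7.14%, against 6.95% of all windows). The palindromes TCTNNNAGA and CTTNNNAAG, made of the same letters in another order, were each in 2 (14.3%), against 10.1% and 9.05% of all windows. The AP-1 element TGANTCA was in 4 (28.6%, interval 11.7 to 54.6%, against 7.81%), and the RUNX element TGTGGTT was in 2 (14.3%, against 5.27%). The RUNX interval of 4.01 to 39.9% holds the share of all windows, and the AP-1 interval does not. Motifs chosen from several searched ones in 14 windows are a description only.

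**Figure D1:**
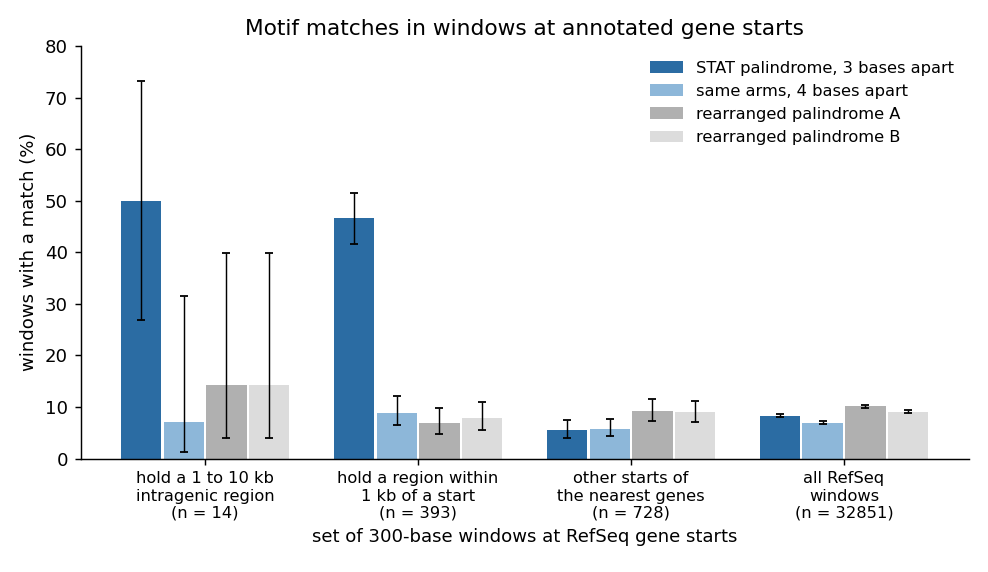
Share of 300-base RefSeq start windows (y axis, percent, with 95% Wilson intervals) that match the STAT palindrome TTCNNNGAA or 3 comparison motifs (the same arms 4 bases apart, TCTNNNAGA as A and CTTNNNAAG as B), for 4 sets of windows (x axis). The STAT palindrome is in 7 of 14 windows and in 46.6% of 393 in the sets that hold a region, and in 5.49% and 8.30% in the sets chosen without one, while the comparison motifs stay between 5.77% and 14.3%.

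Few of the intragenic regions lay within 1 kb of another annotated start. Of the 826 on chromosomes of the sequence table, 56 lay within 1 kb of a RefSeq start (6.78%, interval 5.26 to 8.70%), and for 44 of these the start belonged to the nearest gene itself. The share was 3.06% (interval 2.38 to 3.94%) for regions deeper than 10 kb in a gene and 6.33% for upstream regions beyond 1 kb. Among intragenic regions with a height of their own, the 21 within 1 kb of a RefSeq start had a median IL-2 height of 15 and the other 235 a median of 18, with control medians of 4 and 5.

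The regions were densest just beyond the 1 kb bound. Between 1 and 2 kb there were 222 (25.8% of the 859), or 50.1 per 1000 listed genes at least 2 kb long. The density was 28.6 between 2 and 3 kb, 24.6 between 4 and 5 kb, between 17.9 and 19.2 from 5 to 9 kb, and 11.7 between 9 and 10 kb. Upstream of starts, the same distances gave 29.8 regions per 1000 listed genes between 1 and 2 kb and 12.8 between 9 and 10 kb. In each kilobase up to 9 kb the density was higher inside genes, counted over genes long enough, than upstream, counted over all listed genes, and in the last kilobase it was lower. The denominators differ between the sides. Inside genes, regions in a gene that ends within the kilobase were counted although that gene was not in the denominator. This raises the density inside. In the plain counts the order was the same except between 5 and 6 kb, with 68 inside and 71 upstream. Between 8 and 9 kb the plain counts were close, at 63 and 62. Within 1 kb of the start there were 177 regions per 1000 genes inside and 137 upstream. A region was given to the gene with the nearest start, so a site deep in a gene could be counted at a neighbour's start.

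**Figure D2:**
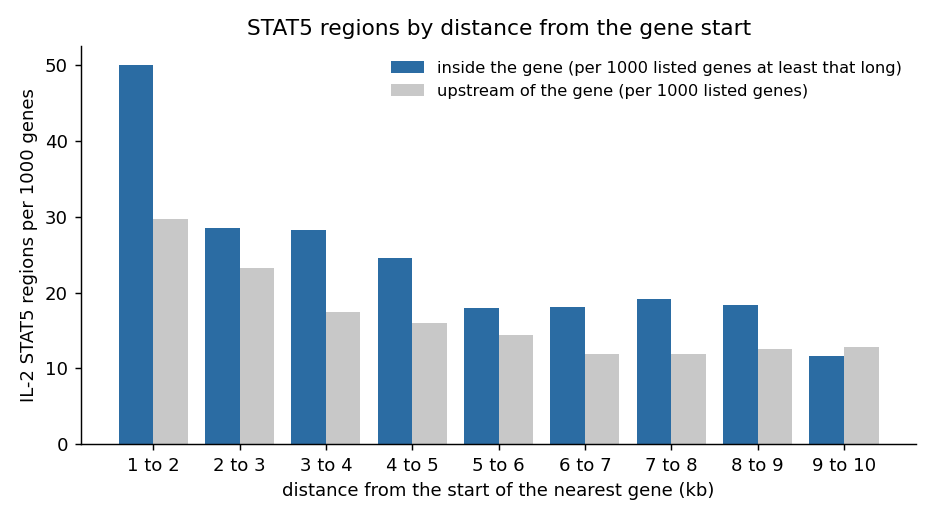
STAT5 regions of the IL-2 library per 1000 genes (y axis) in each kilobase from the start of the nearest gene (x axis), inside the gene and upstream of it. The bars inside genes fall from 50.1 between 1 and 2 kb to 11.7 between 9 and 10 kb, and the upstream bars from 29.8 to 12.8.

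The median distance into the gene was 3769 bp (interquartile range 1959 to 6396.5 bp). As a share of gene length this was a median of 12.0% (5.24 to 30.8%), against 48.7% for regions deeper than 10 kb. Of the 859 regions, 599 (69.7%) lay in the first 25% of the gene and 35 (4.07%) in the last 25%. Their nearest genes had a median length of 29322.5 bp, against 23423.5 bp for listed genes longer than 1 kb, and 119 of the 728 were at most 10 kb long. As most nearest genes were longer than 10 kb, the distance bounds in part set these shares of gene length and their contrast with deeper regions. RefSeq matched 712 of the 728 genes, of which 664 (93.3%) were protein-coding and 44 (6.18%) long noncoding. Among the 4799 listed genes that RefSeq matched, these shares were 87.2% and 6.42%. Genes on both strands were represented alike, with 425 regions in plus-strand and 434 in minus-strand genes. Chromosome X held 8 of the regions (12.3% of its 65), chromosome 10 held 31 (9.84% of 315) and chromosome 4 held 58 (18.7% of 310). Whether a position was exonic or intronic was not analysed here.

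The regions next to the bounds are given here, and too few have a height of their own to compare levels. Just inside the 1 kb bound were regions of Slc44a2 (1009 bp) and Cers6 (1019 bp, heights of 6 in control and 68 with IL-2), and just outside it were regions of Max (1000 bp, 4 and 57) and Gm10744 (998 bp, 5 and 20). Just inside the 10 kb bound were regions of Znrf3 (9999 bp) and Gabrr2 (9955 bp, 4 and 14), and just outside it were Ets1 (10006 bp) and Pip5k1c (10020 bp). Slc44a2, Znrf3, Ets1 and Pip5k1c had several regions, so these have no height of their own.

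A region could be given its own height only where its nearest gene had 1 region, since the table holds gene means. This was so for 267 of the 859 regions (31.1%), which are therefore regions of genes bound once. Their control heights ran from 1 to 13 with a median of 5 (interquartile range 4 to 6), and their IL-2 heights from 10 to 238 with a median of 18 (14 to 30). Each of the 267 was higher with IL-2 than in control, by at least 2 signal units. Since regions were called in the IL-2 library, this direction follows from how they were selected. The ratio of the IL-2 height plus 5 to the control height plus 5 was at least 2 for 209 of the 267 (78.3%, interval 72.9 to 82.8%), against 80.5% of all 2088 regions with a height. It was at least 4 for 48 (18.0%), against 20.5%, and at most 0.5 for 0, against 0%. The median log2 ratio was 1.35, against 1.32 over the 2088 regions. These shares were near the background, so the ratio did not set these regions apart. Dividing the IL-2 heights by 4.15, so that the medians of the listed genes were equal, shifted the median log2 ratio of all genes by -1.33, and 147 of the 267 regions then had the higher value with IL-2 and 120 in control. The same scaling left 1139 of the 2088 regions higher with IL-2, and the sources used here do not say how the libraries were scaled before deposit.

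**Figure D3:**
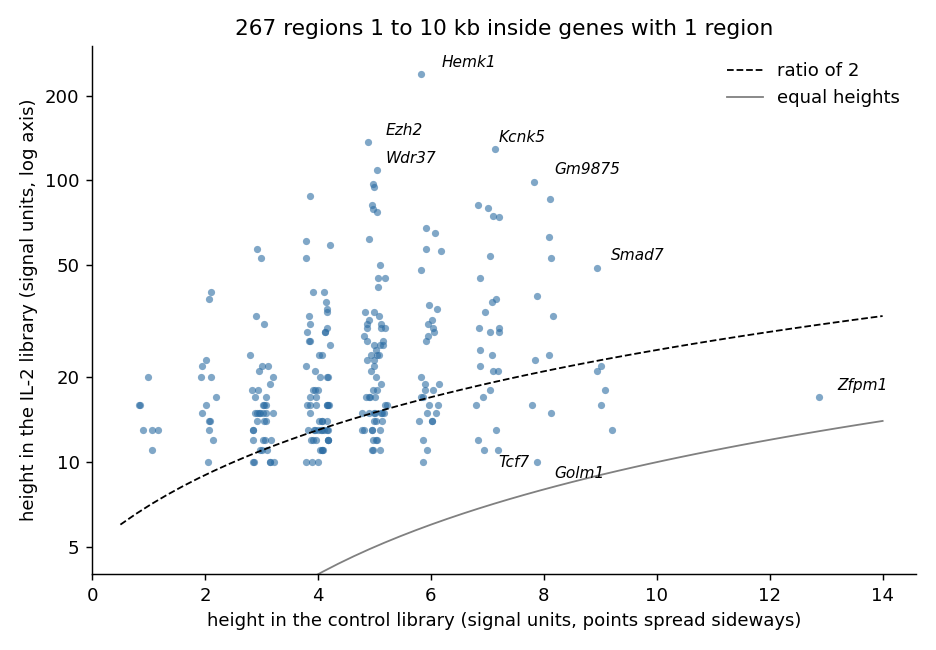
Height in the control library (x axis, signal units, points spread sideways so that equal values can be seen) against height in the IL-2 library (y axis, signal units, log axis) for the 267 intragenic regions with a height of their own. Control heights stay between 1 and 13 while IL-2 heights run from 10 to 238, and 209 points lie on or above the dashed line of a ratio of 2.

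The highest of these 267 peaks lay in genes of varied function. In Hemk1, which encodes a methyltransferase of translation release factors, the region 3790 bp in, on chromosome 9 at 107334560, had a height of 238 with IL-2 against 6 in control (log2 ratio 4.47). That region was also assigned to 6430571L13Rik. Ezh2 encodes the histone methyltransferase of Polycomb repressive complex PRC2. Its region 1302 bp in, on chromosome 6 at 47593728, had 5 and 137 (log2 ratio 3.83). Kcnk5, which encodes a potassium channel, had 7 and 129 at 8726 bp (chromosome 14, 20173056), and Wdr37 had 5 and 109 at 1650 bp (chromosome 13, 8870080). Among the 267 regions with a height of their own, these 4 had an IL-2 height of at least 100. The Wdr37 region lay 964 bp from another RefSeq start, whereas the Kcnk5 region was as far from any RefSeq start as from the start in the table.

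Between 80 and 100 with IL-2 were regions of Gm9875 (8 in control and 99 with IL-2), Tecpr1 (5 and 97), Vash1 (5 and 95), Mcoln2 (4 and 88), Sema4a (8 and 86) and Camsap2 (7 and 82). Tecpr1 encodes a protein of autophagosome maturation, Vash1 a tubulin carboxypeptidase, Mcoln2 a cation channel of endosomes, Sema4a a semaphorin that acts on T cells, and Camsap2 a protein that binds microtubule minus ends. Cuedc1 (5 and 82) and 1700097N02Rik (7 and 80) also lay in this range and are named after their values were seen. None of the regions of this range had a control height above 8. Of the 50 regions with the highest IL-2 heights among all 2088, at 86 or more, 9 were intragenic between 1 and 10 kb (18.0%, interval 9.77 to 30.8%), against 12.8% of the 2088.

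The lowest IL-2 height, 10, was shared by 11 regions. Among them, those with the highest control heights were in Golm1 (control 8, log2 ratio 0.21), 5830418P13Rik (control 6), Coro1a (control 4), Lime1 (control 4) and Setd8 (control 4). Coro1a encodes coronin 1A, an actin-binding protein of T cells, and Lime1 a membrane adaptor of T cell receptor signalling. The smallest ratios after Golm1 were those of Zfpm1 (13 and 17), Fam189b (9 and 13), Kcnh2 (7 and 11) and Tcf7 (7 and 11). Tcf7 encodes TCF1, which maintains naive and memory T cells. The regions at 5830418P13Rik, Coro1a, Lime1, Fam189b and Tcf7 were each assigned to at least 1 further listed gene. Low peaks were common, and 78 of the 267 regions (29.2%) were at 14 or less with IL-2.

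Control signal was low throughout. Of the 267 regions, 228 (85.4%) had a control height from 3 to 7. The highest control height, 13, was that of Zfpm1, which encodes the GATA cofactor FOG1, at 3043 bp on chromosome 8 (122285184). An interval called in the control library lay 848 bp from it, and the other intragenic region with a control interval within 1 kb was 1 of 3 in 2310001H17Rik. The next control height, 9, was shared by 6 regions, with IL-2 heights of 13 at Fam189b, 16 at Mex3c, 18 at Ttpal, 21 at Fam26e, 22 at Ttc16 and 49 at Smad7, of which Ttpal and Ttc16 are named after their values were seen. Smad7 encodes an inhibitor of TGF-beta signalling, and with a log2 ratio of 1.95 it was the only one of these 6 with a ratio above 2.

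The median height of intragenic regions lay between that of regions at starts and those of regions deeper in genes or outside them. The median IL-2 height was 16 (interquartile range 13 to 24, n = 938) within 1 kb of a start, 18 (14 to 30, n = 267) between 1 and 10 kb in, 20 (15 to 31, n = 411) deeper in genes, 23 (15 to 35.5, n = 283) upstream beyond 1 kb and 21 (16 to 38, n = 189) downstream. Control medians were 4, 5, 4, 5 and 4 in that order. The interquartile ranges overlap, and regions of 1 library are not replicates, so no test was made of these differences. A ratio of at least 2 was found for 75.9% (interval 73.1 to 78.5%) of the regions at starts, for 78.3% (72.9 to 82.8%) of those between 1 and 10 kb in, for 87.6% (84.1 to 90.4%) of the deeper ones, for 83.7% of the upstream and for 85.7% of the downstream regions. IL-2 heights of at least 50 made up 11.2% (8.0 to 15.6%) of the intragenic regions, 8.21% of those at starts, 8.76% of the deeper ones and 14.8% of both the upstream and the downstream regions, against 10.2% of all 2088. Within the 1 to 10 kb range the median IL-2 height by kilobase ran from 14 (9 to 10 kb, 13 regions) to 29 (8 to 9 kb, 17 regions), with 19 between 1 and 2 kb (79 regions), and it had no steady trend.

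**Figure D4:**
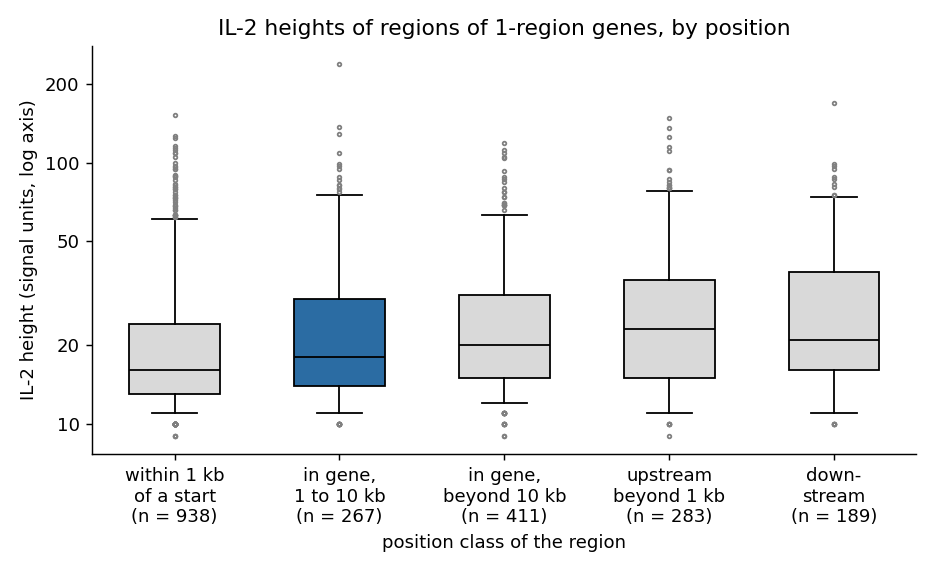
IL-2 heights (y axis, signal units, log axis) of regions whose nearest gene has 1 region, by position class (x axis). Boxes show the quartiles and median, whiskers the 5th and 95th percentiles, and dots the regions beyond them. The intragenic class between 1 and 10 kb (dark) has a median of 18 and holds the highest single value, 238.

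The other 592 intragenic regions (68.9%) lay in 461 genes with several regions, and only gene means can be given for these. The IL-2 gene means had a median of 27.5 (interquartile range 19.5 to 38.5) and the control gene means a median of 5 (4.33 to 5.57). Genes with several regions that were not the nearest gene of an intragenic region numbered 1181, with medians of 25.25 and 5. The ratio of gene means was at least 2 for 435 of the 461 genes (94.4%), against 83.8% of all 4934 listed genes, many of which have 1 region. Of the 728 nearest genes, 185 (25.4%) also had a region within 1 kb of their own start, against 36.6% of all listed genes. Of those longer than 10 kb, 194 of 609 (31.9%) also had a region deeper than 10 kb, against 35.5% of listed genes of that length. Both shares of the nearest genes are lowered by construction. Of the 728, 267 had the intragenic region as their only region and so could not have another. No difference from the listed genes is therefore read from these shares.

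Several genes had clusters of intragenic regions. There was 1 such region in 620 genes, 2 in 90 and 3 or more in 18. Gpr183, which encodes an oxysterol receptor that guides lymphocyte migration, had 5, at 1129, 2745, 4585, 6729 and 9929 bp, and the mean over its 6 regions was 5.83 for control and 28.83 after IL-2. With 4 each followed Gm8369 (4.6 and 44.8 over 10 regions), Slc44a2, a choline transporter gene (4.83 and 29.5 over 6), and Nup210, which encodes a nuclear pore protein (3.75 and 13.75 over 4). Nup210 thus had as many intragenic regions as Slc44a2, with an IL-2 mean less than 50% of its mean.

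Il2ra, which encodes the IL-2 receptor subunit CD25, had 3, at 2776, 5064 and 8792 bp, with the highest IL-2 mean of the 18 genes (5.5 and 81.17 over 6 regions). Bcl6 had 3, at 3876, 5860 and 7268 bp. Selplg, the gene of the selectin ligand PSGL-1, had 3 (7.25 and 47 over 4), and so had the transcription factor genes Fli1 (5.18 and 36.82 over 11) and Runx1 (5.17 and 30.5 over 6) and the interferon-induced GTPase gene Ifi47 (5.6 and 32.6 over 5). The others with 3 were 2310001H17Rik, Fnbp1, Tapt1, Ankrd44, Zdhhc20, Prrc2c, Dnajc15 and Csrnp1, with IL-2 means from 16.33 to 60.67. Over all genes, 131 pairs of neighbouring intragenic regions had spacings from 512 to 8880 bp (median 3072), and 5 of the spacings were at most 1000 bp.

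**Figure D5:**
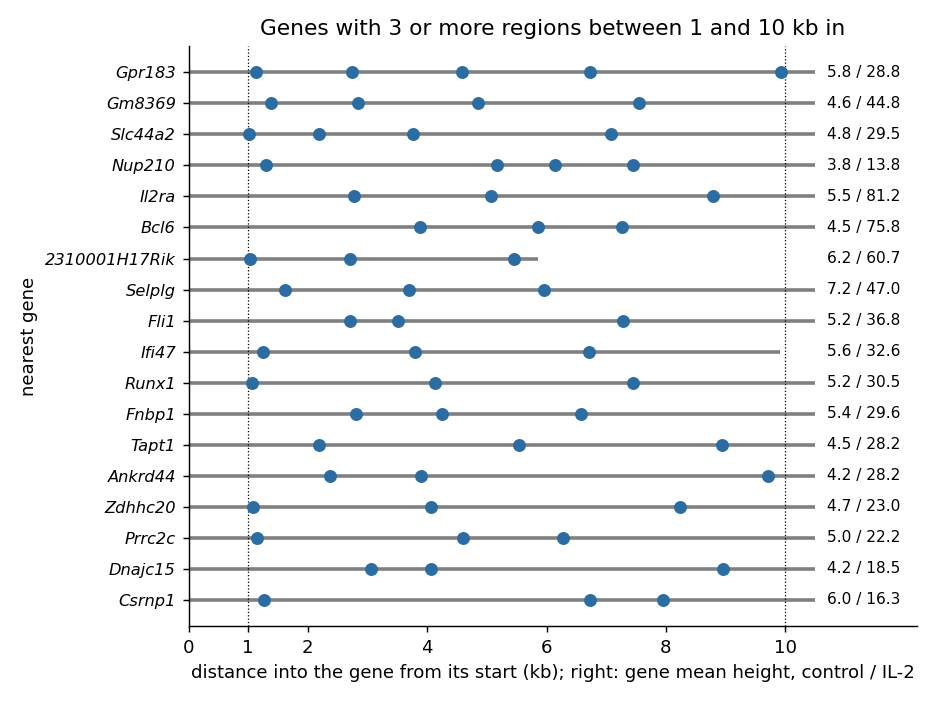
Positions of intragenic STAT5 regions (dots) along the first part of the 18 genes (y axis) with 3 or more, by distance from the gene start in kb (x axis), with dotted lines at 1 and 10 kb. Grey lines show the gene and end where the gene ends. Numbers at the right give the mean height over all regions of the gene in control and with IL-2, with IL-2 means from 13.75 at Nup210 to 81.17 at Il2ra.

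Some intragenic regions were assigned to further genes as well, in a share near that of all regions. Of the 859 regions, 292 (34.0%) were also assigned to a second or further listed gene, against 30.1% of all regions. The share was 2.80% for the deeper intragenic regions. By the rule, a deeper region lies more than 10 kb from the start of every gene it was assigned to, so a low share follows in part from the rule. The 292 regions had 364 further assignments. Of these 364 further assignments, 181 placed the region upstream of the other gene, 145 downstream and 38 inside it. A region on chromosome 14 at 54145995, in the T cell receptor segment Trdc, was assigned to 7 genes. One RefSeq microRNA hairpin lay within 1 kb of an intragenic region, Mir7050 at Fxyd5, where the height was 6 in control and 28 with IL-2.

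Genes of cytokine reception and T cell regulation were counted in lists. A gene counts here where it was the nearest gene of an intragenic region, and over all listed genes 728 of 4934 (14.8%) were. Of 34 cytokine receptor genes, 21 were in the table and 11 of these (52.4%) had 16 intragenic regions. Il4ra, which encodes the IL-4 receptor alpha chain, had regions 2310 and 9190 bp in (gene means of 7 and 61.75 over 4 regions). Il6ra (5.33 and 47 over 6), Il18r1 (5.2 and 46.8 over 5) and Il12rb2 (4.2 and 46.4 over 5) encode chains of the IL-6, IL-18 and IL-12 receptors. Ifngr1, a chain of the interferon gamma receptor, had a single region, 6346 bp in, with 5 and 45. Tgfbr3 (5 in control and 21 with IL-2) and Crlf2 (3 and 10) also had a single region, with IL-2 heights below that of Ifngr1. Genes with more regions have more chances to hold one at these distances, so these shares are not set against each other by a test.

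Of 30 known IL-2 and STAT5 target genes, 28 were in the table and 9 (32.1%) had 16 intragenic regions. Besides Il2ra and Bcl6, Bcl2l1 and Bcl2 encode proteins that protect from apoptosis. Bcl2l1 had regions 1378 and 5810 bp in (gene means of 6.75 and 89 over 4 regions), and Bcl2 had 1, 1682 bp in (5.82 and 57.09 over 11). Dusp5, a phosphatase of ERK, had 1 at 7610 bp (5.25 and 47.25 over 4) and Ccnd3, which encodes cyclin D3, 1 at 3056 bp (5.33 and 44.33 over 3). Pim1, Nfil3 and Bcl3 were the remaining 3, with IL-2 means from 32 to 32.33. None of the 9 genes had 1 region alone.

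Of 58 transcription factor genes of T cell fate, 51 were in the table and 23 (45.1%) had 33 intragenic regions. After Bcl6, the highest gene means were those of Irf2, a factor of the interferon response (5.5 and 66 over 2 regions), Tox2 (5 and 48 over 2) and Irf4, which is induced by antigen receptor signals (4 and 45.67 over 3). Those with a single region were Rel, an NF-kappaB subunit (6 and 27), Stat3 (5 and 17), Foxo3 (3 and 13) and Tcf7 (7 and 11). Stat5b itself had 2 intragenic regions, 5721 and 8377 bp in, which were its only regions, with means of 6.5 and 22.

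Of 34 costimulatory and inhibitory receptor genes, 24 were in the table and 12 had 16 intragenic regions, each in a gene with several regions. Slamf1 (5.25 and 56.25 over 4), Slamf7 (4.33 and 48.67 over 3), Tnfrsf9 and the inhibitory receptor gene Tigit (7 and 36.67 over 3) had the highest means. Among trafficking and adhesion genes 13 of 29 in the table (44.8%) had one, led by Selplg and by Arhgap15, a regulator of Rac (3.8 and 46.6 over 5). Itga1 (5 and 33.33 over 3) encodes integrin alpha 1 and Ccr6 (5.33 and 30.33 over 3) a chemokine receptor. In this list the 3 genes with a single region, Itgae (7 and 18), Ccr7 (5 and 13) and Coro1a, each had a ratio under 2.

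Signalling genes followed. T cell receptor signalling genes had intragenic regions in 14 of 36 (38.9%), with Prkcq, a protein kinase C (4.88 and 51.63 over 8 regions), Cd247, the CD3 zeta chain (8 and 46.5 over 2), the adaptor Lcp2 (6 and 40.33 over 3) and Themis (4.25 and 40.25 over 4). JAK, PI3 kinase and mTOR genes had them in 8 of 20 (40.0%). Pik3r5 (5.57 and 62.29 over 7), Pik3cd (4.29 and 40.43 over 7), Pik3ca (7 and 34, a single region) and Pik3cg (3 and 34 over 2) encode subunits of PI3 kinases. Feedback inhibitors and phosphatases had them in 7 of 25 (28.0%), with Spred1, an inhibitor of the Ras pathway, at 4 and 59 for its single region 1590 bp in. Dusp5, Ptpn22 (4.67 and 29.33 over 6) and Ptpn6 (4.67 and 21.67 over 3) came next.

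Survival and apoptosis genes had intragenic regions in 6 of 19 (31.6%), among them Traf1 (6 and 64 over 4 regions) and Casp8 (3.75 and 47 over 4), and cell cycle genes in 3 of 13 (23.1%), Ccnd3, Rbl2 (6 and 30 over 2) and Cdkn1b (5.67 and 24.67 over 3). Metabolic genes had them in 7 of 14. The glycolytic enzyme gene Eno1 had 7 and 74 at its single region, Hk2 5.6 and 34.6 over 5, the glucose transporter gene Slc2a1 3.67 and 33.67 over 3, and Pfkp 5.5 and 21.75 over 4. Chromatin regulators had them in 3 of 20 (15.0%), Ezh2, the demethylase gene Kdm6b (5 and 26, a single region) and Tet2 (3 and 16 over 2).

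Effector genes were counted as well. Cytotoxic granule and death ligand genes had intragenic regions in 3 of 17 (17.6%), Rab27a (3.83 and 28.33 over 6 regions), Srgn (4 and 22, a single region) and Klrd1 (4.8 and 15.6 over 5). Cytokines and chemokines had them in 4 of 20. Tnfsf11, which encodes RANK ligand, had 4 and 53 at its single region 1227 bp in, followed by Lif (5.25 and 37.25 over 4), Il10 (5.8 and 33.6 over 5) and Tnfsf8 (4 and 25.8 over 5). Both shares were near the 14.8% of all listed genes.

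Genes of other cell types were mostly outside the table. Of 14 B cell genes 1 was listed and 0 had an intragenic region, of 11 NK cell genes 4 and 0, and of 25 genes of unrelated tissues 2 and 0. Of 16 myeloid genes 3 were listed and 1 had one, Itgax (5 and 13 at its single region). All 8 CD8 T cell marker genes were in the table and 4 had an intragenic region. A STAT5 region near a gene is not its expression, so the cell type was not checked by these counts.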

How the data were processed

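Per the labels, STAT5A ChIP-seq was made from 1 library without and 1 library with IL-2. Per the submitters' processing notes, reads were aligned with BWA to mm10. The peak caller, filters, depth and scaling were not given in the sources used here, so counting error is unknown. The deposited table gives each gene's mean peak height per library, a signal that is never negative, and the names, distances and positions of its intervals. Interval names show that regions were called per library. Positions were computed from gene start, strand and distance, and 815 of the 859 lie on a grid of 16 bp, which limits their resolution.

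Regions were given to the gene of smallest absolute distance. Log2 ratios used a pseudocount of 5, which understates the change of low heights, and regions were counted at a ratio of 2 or more and of 0.5 or less. Wilson intervals (95%) cover counting of regions or windows only. The steps were tested on simulated data. Python 3.11.15, pandas 2.3.3 and RefSeq tables of GRCm38.p6 were used. No genome sequence was used here, so motifs were searched only in RefSeq start windows.

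The members and 18 gene lists were chosen with earlier results of these data known. Named genes are the 10 highest and 5 lowest IL-2 heights, the 5 highest control heights, the 5 largest and 5 smallest ratios, genes with 3 or more members, regions next to the bounds, and up to 4 genes per list with the highest IL-2 height. Genes described for the windows, for their single region in a list, as Stat5b and for shared regions or microRNAs were added after their values were seen. Alternatives were other distance bounds, pseudocounts, folds, scaling and height sources.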

Additional observations from a re-analysis of the deposited data

How the results depend on the processing

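No paired analysis was possible because the samples were 1 control and 1 IL-2 library. The 859 regions became 555 with bounds of 1000 and 5000 bp, which keep fewer regions by construction, 637 with a lower bound of 2000 bp and 976 when any listed gene could hold the region. The count of 209 regions at a ratio of 2 or more fell to 135 under a pseudocount of 10, to 48 under the 4-fold rule and to 19 after scaling to equal medians, and it stayed within 1.5 times with a pseudocount of 1 (253), with heights from any listed gene with 1 region (230 of 294) and without the region near a control interval (209 of 266). The median log2 ratio, 1.35, was 1.95 under a pseudocount of 1, 1.00 under 10 and 0.066 after scaling. The median IL-2 height of 18 became 17 with the lower bound of 2000 bp, and the cause was not tested. Scaling removes an overall difference between the libraries by construction. Of 71 named genes, all had log2 ratios above 0 with pseudocounts of 1 and 10, and 57 did with scaling. Ratios of at least 2 turned below 1 with scaling at Klrd1 (log2 ratio -0.16) and Pfkp (-0.036). The planned motif search in windows around each region, at each planned length, was not run, since it needs a genome sequence. Depth, and so the counting error of each height, is unknown.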
